A study of Mus musculus with 9 samples.

Results

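Bone marrow cells carrying the NUP98-NSD1 fusion together with NRASG12D were compared with cells carrying the fusion alone, by RNA sequencing. The samples were chosen by their labels, 3 labelled NUP98-NSD1+NRASG12D and 3 labelled NUP98-NSD1, 6 of the 9 samples of the series. The remaining 3 carried NRASG12D without the fusion and serve here for values side by side. All cells came from female C57BL/6J mice, 6 to 8 weeks old, that had received 150 mg of 5-fluorouracil per kg body weight 4 days before the marrow was taken. The marrow was kept for 48 h in medium with interleukin 6, interleukin 3 and stem cell factor and was then transduced with retroviral MSCV vectors, NUP98-NSD1 with an IRES-GFP cassette and NRASG12D with an IRES-BFP cassette. Cells were sorted by fluorochrome and expanded before RNA was isolated. The series record puts the expansion before the sort. The methods of the study give both orders, expansion first for the transduced marrow and the sort first for the expression profiling. Both groups of the comparison thus carried the fusion, the donor treatment and the cytokines, and differed by the NRASG12D vector. Both genes were driven by a retroviral promoter in cultured cells. The labels do not say whether the 3 samples of a group came from separate animals or separate transductions, so biological and technical spread between these samples cannot be told apart in the p-values. The combined cultures are those labelled NUP98-NSD1+NRASG12D and the fusion cultures those labelled NUP98-NSD1.

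RAS proteins are membrane-bound switches that, loaded with GTP, recruit RAF kinases, which activate the MEK and ERK kinases of the MAP kinase cascade. ERK phosphorylates transcription factors that turn on immediate early genes such as Egr1 and Fos, and later cyclin D1, while DUSP, SPRY and SPRED proteins feed back on the cascade. The G12D change holds NRAS in its active form, and NRAS mutations are common in myeloid leukaemia. The NUP98-NSD1 protein fuses sequences of a nuclear pore component with those of an enzyme that methylates histones, and is known for keeping genes of the Hoxa cluster active in immature myeloid cells. Marrow grown with interleukin 3 and stem cell factor yields mast cells as well as neutrophils and macrophages, so that the marker genes of these lineages are given for every sample.

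The study asked how NRASG12D works together with the fusion in leukaemia. The files hold expression as FPKM, fragments divided by transcript length and by the mapped fragments of the sample, for 55274 gene identifiers in each sample. Steps between the low values gave an estimated 30790000, 27724000 and 25126000 fragments for fusion replicates 1, 2 and 3, and 29284000, 25606000 and 23710000 for combined replicates 1, 2 and 3, and a transcript of 2 kb with 3 fragments would then have 0.0487 to 0.0633 FPKM. The summed FPKM were 637679, 629806 and 593437 in the fusion samples and 674974, 611015 and 675144 in the combined samples. An FPKM of at least 1 was reached by 13107, 13060 and 12953 genes in the fusion samples and by 12754, 12999 and 12506 in the combined samples. The 13493 genes that reached 1 FPKM in 3 or more of the 9 samples were tested with limma on log2(FPKM + 1). A gene was called where its Benjamini-Hochberg adjusted p, taken over every tested gene, was under 0.05. Fold changes are on the log2(FPKM + 1) scale, which understates changes of genes with low levels, and run from the fusion group to the combined group. The SE beside a fold change is limma's moderated SE, which draws on both groups and on the spread of other genes.

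In cells with the added NRASG12D, 9 of 10 tested mast cell protease genes and 8 of 16 immediate early genes were called lower than with the fusion alone, while 9 of 21 late neutrophil genes and 8 of 29 monocyte and macrophage markers were called higher. In the immediate early list 1 gene was called higher and among the macrophage markers 1 lower, and none of these late neutrophil and macrophage rises was kept in every fit without a sample. A gene that passed the filter through 1 group alone had its direction fixed by it. Such members enter the medians and signs of the lists. The lists were not tested as sets, and the calls in each list are to be read against the shares over all tested genes that follow. Of the 13493 tested genes, 1162 were called (8.61%), 311 higher (2.3%) and 851 lower (6.31%) in the combined cultures. The median log2 fold change was 1.49 among the genes called higher, -1.37 among those called lower and -0.06 among all tested genes. A change of at least 2 on the log2 scale was reached by 235 of the genes called lower and by 73 of those called higher. An unadjusted p under 0.05 was reached by 3316 genes (24.6%). Irrespective of the test, all 3 combined samples lay above all 3 fusion samples in 1564 genes (11.6%) and below them in 2671 (19.8%). The number of calls rested on single samples. It was 417, 302 and 283 without fusion replicates 1, 2 and 3, and 2509, 1078 and 494 without combined replicates 1, 2 and 3. Both the calls with all 6 samples and those in each of these 6 fits included 238 genes (1.76%), 16 higher and 222 lower.

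**Figure D1:**
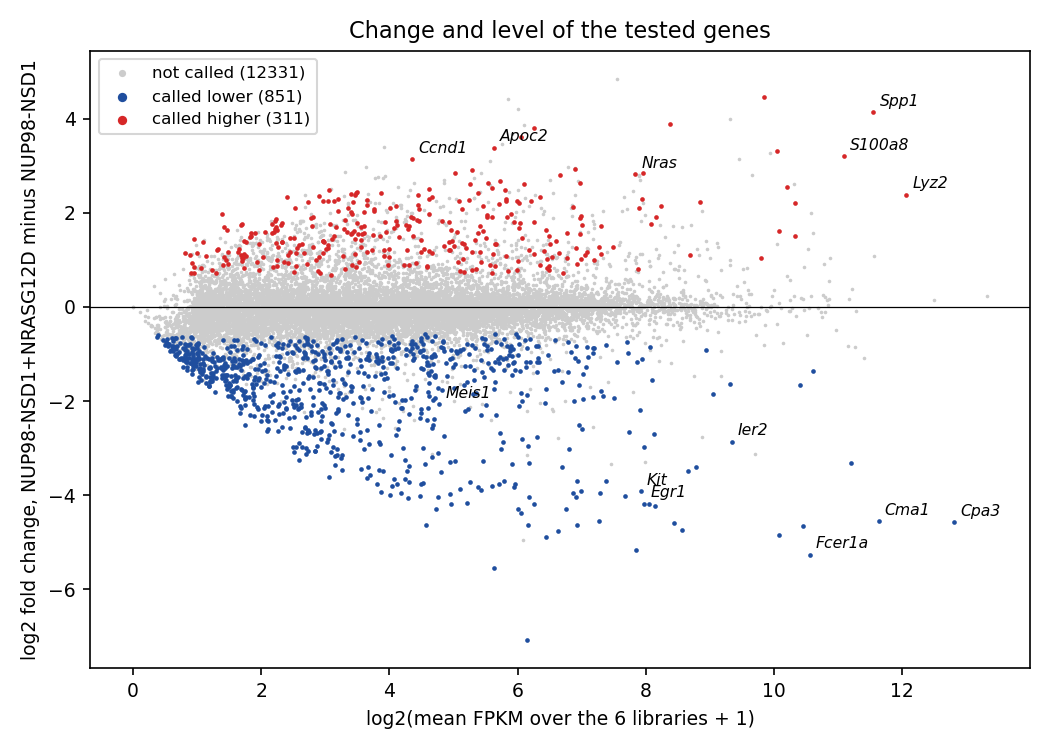
Log2 fold change, combined minus fusion cultures, against the log2 mean FPKM over the 6 samples for the 13493 tested genes, with the 311 called higher in red and the 851 called lower in blue. Mast cell genes such as Cpa3 (-4.57) and Fcer1a (-5.26) are among the most abundant falling genes, and Spp1 (4.13) and Lyz2 (2.39) among the most abundant rising ones.

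The vector gene was checked first. Nras stood at 50.3, 47.7 and 51.2 FPKM in fusion replicates 1, 2 and 3 and at 245, 262 and 701 in combined replicates 1, 2 and 3. Every combined sample lay above every fusion sample, and combined replicate 3 stood apart with the highest level. The log2 fold change was 2.81 ± 0.40 (SE, n = 3 and 3), adjusted p = 0.01097, and the two-sided exact permutation p for the 6 values was 0.1, the smallest that 3 against 3 allow. The call was lost without fusion replicate 3 (adjusted p = 0.0521). Vector and endogenous mouse transcripts cannot be told apart in these values, and how much of the vector sequence was counted as Nras was not measured. Hras, a gene of the same family, was not called, at 2.79, 2.93 and 1.39 FPKM in the fusion samples and 3.73, 3.56 and 2.59 in the combined samples (log2 fold change 0.37, adjusted p = 0.432).

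Nup98, Nsd1 and 3 Hoxa genes were not called. Nup98 measured 18.6, 18.2 and 19.03 FPKM in the fusion samples and 11.9, 15.6 and 20.2 in the combined samples, with overlapping groups. Nsd1 measured 15.7, 10.8 and 16.2 and 9.98, 13.8 and 16.2, again overlapping. Hoxa9, a transcription factor gene that drives self-renewal in myeloid leukaemia, was at 53.5, 52.2 and 37.4 FPKM with the fusion alone and 55.6, 39.01 and 75.8 with both genes (log2 fold change 0.22, adjusted p = 0.732). Hoxa7 had 31.6, 25.5 and 12.7 and 42.95, 25.5 and 42.3 FPKM (0.70, adjusted p = 0.308), and Hoxa10 17.9, 15.2 and 11.3 and 13.3, 20.1 and 40.4 (0.57, adjusted p = 0.449). The groups overlapped for each of these 3 Hoxa genes. The study named them from these samples when setting fusion cells beside NRASG12D cells, so that their levels there are not independent evidence. All 3 were near 0 FPKM in the NRASG12D samples, with Hoxa9 at 0, 0.0253 and 0.101.

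The 3 combined cultures differed more among themselves than the 3 fusion cultures did. The median standard deviation of log2(FPKM + 1) over 3 samples was 0.333 for the combined group, 0.157 for the fusion group and 0.122 for the NRASG12D group. The combined group had the larger standard deviation of the pair in 11101 tested genes (82.3%). A standard deviation over 1 was found in 692 genes of the combined group and 138 of the fusion group. As a distance between samples, the root mean square of log2 differences over the tested genes was 0.799 between combined replicates 1 and 2, 0.767 between 1 and 3, and 0.662 between 2 and 3. The same distances were 0.308, 0.468 and 0.439 within the fusion group. Across the groups the 9 distances ran from 0.732 to 1.07, so that the nearest pair of a combined and a fusion sample was closer than some pairs of combined samples.

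Each combined culture had a profile of its own. Among the 851 genes called lower, combined replicate 2 was the highest of the 3 in 559, replicate 1 in 202 and replicate 3 in 90. Their median log2 difference from the fusion mean was -1.41 in replicate 1, -1.21 in replicate 2 and -1.57 in replicate 3. Among the 311 genes called higher, replicate 1 was the lowest of the 3 in 212 and replicate 3 the highest in 178. Replicate 2 kept the most mast cell transcripts and had the highest macrophage, lysosome and interferon-stimulated genes, replicate 3 had the highest late neutrophil and stefin genes, and replicate 1 the highest Mpo, Elane and Prtn3, with the values given for each list.

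**Figure D2:**
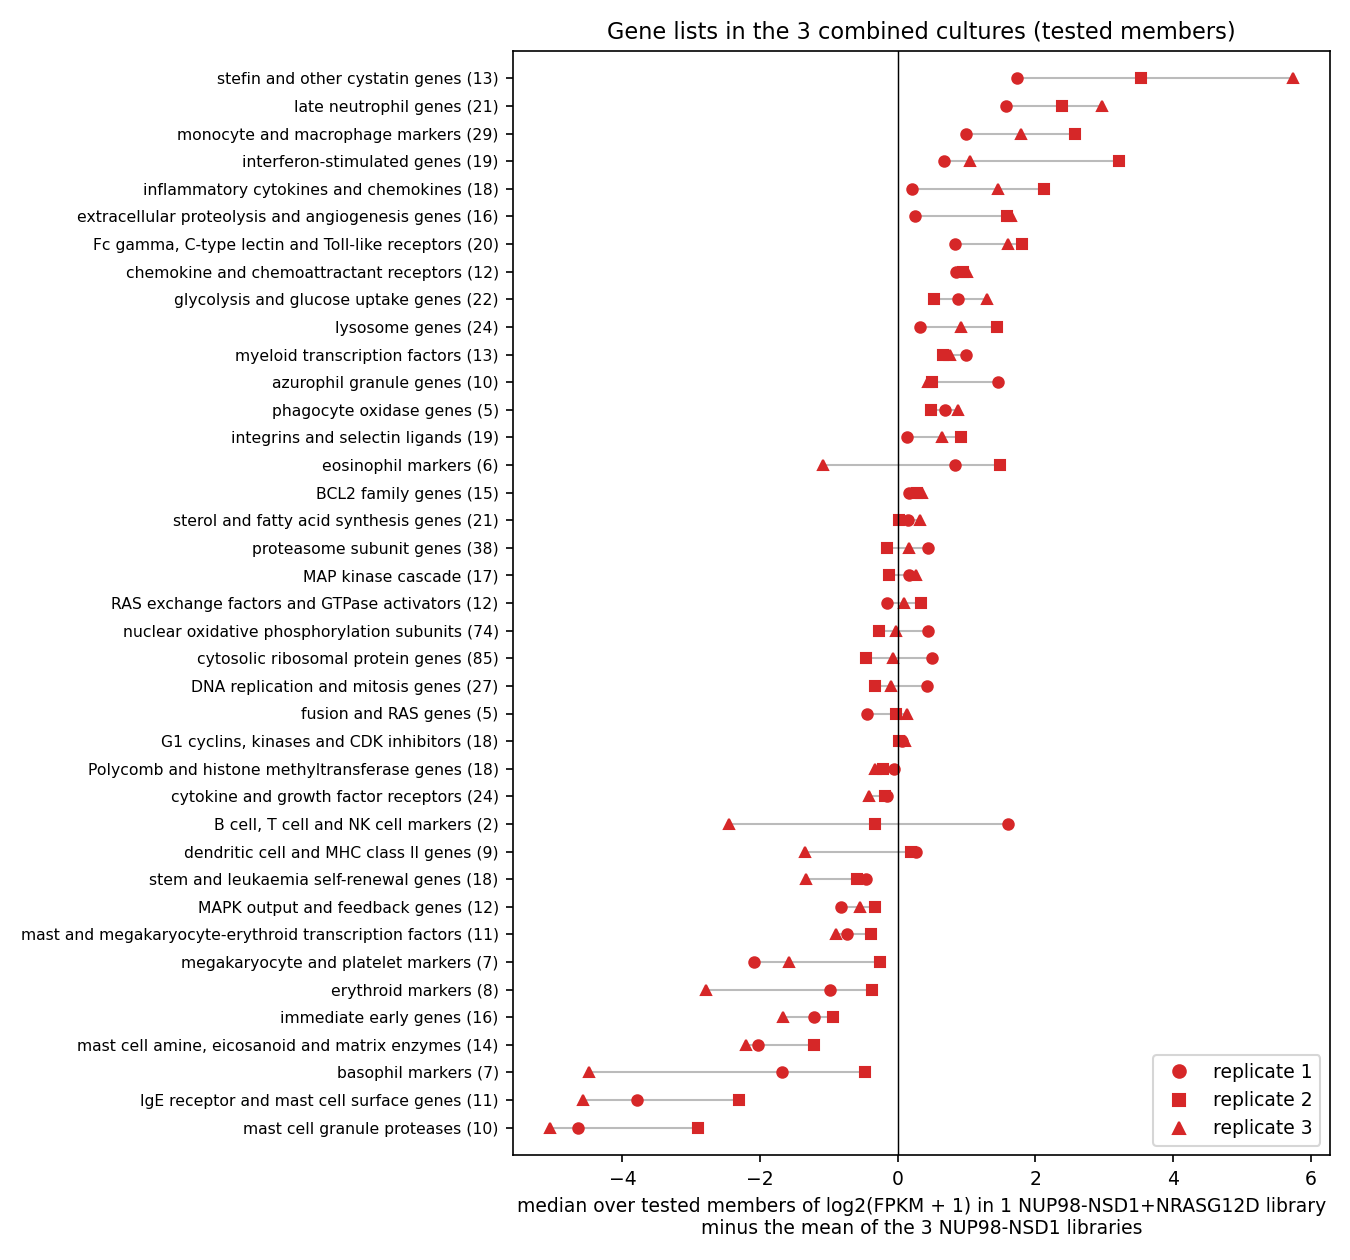
For each gene list, the median over its tested members of the log2(FPKM + 1) value in a combined sample minus the mean of the fusion samples, with 1 symbol per combined replicate. Mast cell protease genes lie at -4.65, -2.90 and -5.04 in replicates 1, 2 and 3, late neutrophil genes at 1.57, 2.39 and 2.97, and stefin and cystatin genes spread the most among the rising lists, at 1.73, 3.53 and 5.74.

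Immediate early genes are those that ERK and stress signals switch on within minutes. Of 16 genes, all found and tested, 8 fell, 1 rose and 7 were not called, and the median log2 fold change was -1.32, beside -0.06 for all tested genes. Egr1, a zinc finger factor induced by ERK, was at 496, 379 and 552 FPKM in the fusion samples and at 17.04, 34.5 and 26.4 in the combined samples. The groups were far apart, at a log2 fold change of -4.18 ± 0.28 (SE, n = 3 and 3), adjusted p = 0.00377. Ier2 was the most abundant gene of the list in the fusion samples, with 1286, 986 and 1129.7 FPKM in the fusion samples and 205, 112 and 161 in the combined samples (-2.86 ± 0.26 (SE, n = 3 and 3), adjusted p = 0.00542). Junb, a subunit of the AP-1 factor, measured 996, 748 and 744 and 225, 202 and 262 FPKM (-1.84, adjusted p = 0.007703), and its partner Jun 261, 206 and 260.1 and 79.1, 68.7 and 61.8 (-1.78, adjusted p = 0.00566). In all 4 genes every combined sample lay below every fusion sample. Egr3 fell from 15.3, 11.5 and 21.2 to 0.3001, 1.48 and 0.7702 FPKM (-3.21, adjusted p = 0.00556), Nr4a1 by a log2 fold change of -2.08, adjusted p = 0.00885, and Fos from 189.6, 133 and 97.8 to 73.4, 51.997 and 39.1 (-1.33, adjusted p = 0.04805). The gene that rose was Atf3, a stress-induced repressor, at 6.69, 6.57 and 7.95 FPKM with the fusion alone and 39.5, 58.2 and 27.004 with both genes (2.34 ± 0.28 (SE, n = 3 and 3), adjusted p = 0.00816). Without a sample, the 8 falls were kept in 6, 6 and 6 without NUP98-NSD1 replicates 1, 2 and 3, and 8, 7 and 6 without combined replicates 1, 2 and 3. The summed FPKM of the list was 3641, 2842 and 3126 in the fusion samples, 909.9, 719 and 843 in the combined samples and 1576, 1403 and 1292 in the NRASG12D samples.

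Some genes report or restrain ERK activity. Of 17 genes listed as MAPK output, 12 passed the filter, 1 rose and 1 fell, beside 2.3% called higher and 6.31% called lower among all tested genes, and the median was -0.55. Ccnd1, the cyclin that drives entry into S phase, was at 2.16, 3.85 and 2.85 FPKM in the fusion samples and 18.5, 40.8 and 48.4 in the combined samples. It lay higher in all 3 combined samples, by 3.14 ± 0.37 (SE, n = 3 and 3), adjusted p = 0.00793, and the call was kept without each of the 6 samples (adjusted p 0.00438 to 0.04096). In the NRASG12D samples it was at 10.1, 50.1 and 32.9. Ier3, an ERK-induced survival gene, fell from 417, 349 and 408 to 56.4, 99.7 and 109 FPKM (-2.19 ± 0.27 (SE, n = 3 and 3), adjusted p = 0.00886), also kept without each sample. The phosphatase gene Dusp4 had 18.4, 24.8 and 23.4 and 2.18, 16.5 and 4.26 FPKM (-1.79, adjusted p = 0.1103), Phlda1 27.4, 20.97 and 33.96 and 4.402, 10.6 and 12.8 (-1.55, adjusted p = 0.0505), and Spred1, which blocks RAF activation, 7.297, 8.12 and 12.3 and 1.797, 5.203 and 2.35 (-1.37, adjusted p = 0.0547). These 3 lay below the fusion samples in every combined sample without passing the test. Of the 12 tested genes, 4 had a positive and 8 a negative log2 fold change. Irrespective of the test, 2 lay wholly higher and 6 wholly lower in the combined samples, beside 11.6% and 19.8% of all tested genes. Dusp6 was the most abundant member in combined replicate 3.

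Within the MAP kinase cascade, 17 of 19 genes passed the filter, 2 rose, 1 fell and the median was 0.08. Among all tested genes 2.3% were called higher and 6.31% lower. Mapk13, which encodes the p38 delta kinase, had 2.72, 1.97 and 1.27 FPKM in the fusion samples and 8.96, 8.502 and 36.7 in the combined samples (2.38 ± 0.54 (SE, n = 3 and 3), adjusted p = 0.0427). Combined replicate 3 held the highest value, with replicates 1 and 2 close to each other, and the call was lost without each of the fusion replicates (highest adjusted p = 0.157, without NUP98-NSD1 replicate 3). Map2k1, the gene of the kinase MEK1, was at 39.99, 35.3 and 29.9 and 70.6, 70.9 and 84.02 FPKM (1.08 ± 0.17 (SE, n = 3 and 3), adjusted p = 0.01403). Map2k3, an activator of p38 kinases, fell from 74.7, 72.9 and 85.5 to 51.3, 48.3 and 47.8 (-0.65, adjusted p = 0.0378). The 2 rises were kept in 1, 0 and 0 without NUP98-NSD1 replicates 1, 2 and 3, and 2, 2 and 2 without combined replicates 1, 2 and 3, and the fall of Map2k3 in 0, 0 and 0 without NUP98-NSD1 replicates 1, 2 and 3, and 1, 0 and 0 without combined replicates 1, 2 and 3. Of 18 exchange factors and activators of RAS GTPases, 12 were tested, 1 rose and 1 fell, to be read against the same shares, at a median of 0.05 whose sign differed between scalings. Rasa4, a calcium-regulated activator of RAS GTPase activity, rose from 3.81, 3.02 and 2.93 to 8.85, 15.5 and 7.33 FPKM (1.39, adjusted p = 0.02996), and Rasal3 fell from 67.2, 72.4 and 74.3 to 36.2, 47.3 and 37.02 (-0.82, adjusted p = 0.0277). Both calls were lost when any one of the 3 fusion samples was left out, with adjusted p up to 0.122 for Rasa4 and 0.132 for Rasal3, and that of Rasal3 was also lost without combined replicate 3. Rasgrp1, an exchange factor that loads RAS with GTP, had 3.67, 4.16 and 3.71 and 0.4705, 2.76 and 0.4496 FPKM (-1.27, adjusted p = 0.0873). Ccnd1 and Mapk13 were named by the study from these samples, so that their direction is not independent evidence.

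**Figure D3:**
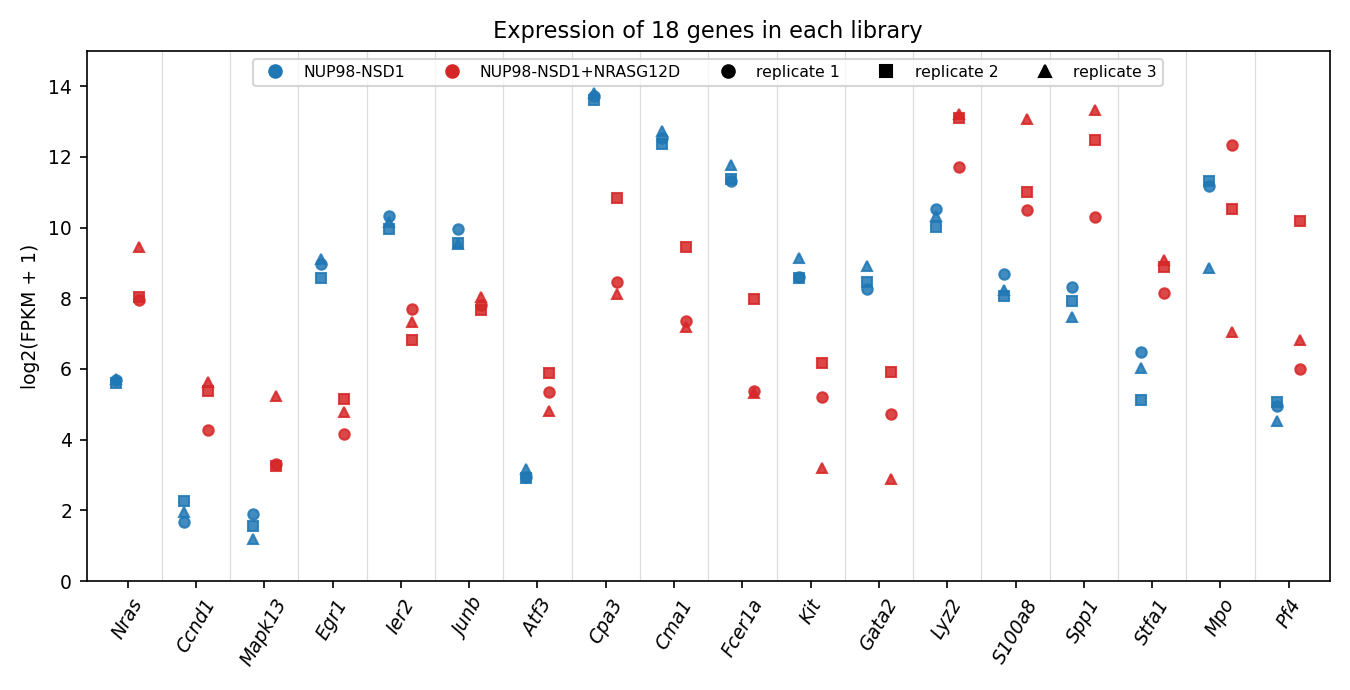
Log2(FPKM + 1) of 18 genes in the 3 fusion samples (blue) and the 3 combined samples (red), with 1 symbol per replicate. Egr1, Cpa3, Cma1 and Fcer1a lie lower in every combined sample, Nras, Ccnd1, Lyz2 and Spp1 higher, and Mpo (5139.6, 1463 and 131 FPKM in combined replicates 1, 2 and 3) overlaps between groups.

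Mast cell genes were among the largest falls. Mast cells store proteases on a heparin matrix in their granules, and all 11 listed protease genes were found, 10 were tested and 9 fell, at a median log2 fold change of -4.30. Cpa3, the mast cell carboxypeptidase, was the most abundant transcript of the fusion cultures, at 13413, 12564 and 14378 FPKM, and was at 353, 1821 and 279.6 in the combined samples. Combined replicate 2 held several times the level of the other 2, and all 3 lay far below the fusion samples (-4.57 ± 0.70 (SE, n = 3 and 3), adjusted p = 0.0135). Cma1, a chymase, measured 5904, 5267 and 6839 FPKM with the fusion alone and 163, 697 and 144 with both genes (-4.55 ± 0.60 (SE, n = 3 and 3), adjusted p = 0.00942). The same order of the combined samples was seen for the tryptase gene Tpsb2, at 3407, 4353 and 4652 and 249, 1180.1 and 235 FPKM (-3.32, adjusted p = 0.0252), and for Tpsg1, at 532, 622 and 819 and 15.6, 85.02 and 12.4 (-4.60, adjusted p = 0.01197). The largest fall of the list was that of the chymase Mcpt4, from 415, 415 and 491 to 5.25, 34.1 and 7.46 FPKM (-5.16, adjusted p = 0.00772). Gzmb, granzyme B, fell from 1747, 1905 and 2410.1 to 55.3, 328 and 16.96 (-4.85, adjusted p = 0.0281), Mcpt2 from 185, 248 and 242 to 11.6, 15.7 and 10.9 (-4.04, adjusted p = 0.001399) and Mcpt1 from 45.5, 58.6 and 65.5 to 3.14, 4.44 and 1.16 (-3.96, adjusted p = 0.00542). Tpsab1 was not called (-1.74, adjusted p = 0.226). The summed FPKM of the list was 25663, 25451 and 29929 in the fusion samples and 858, 4178 and 707 in the combined samples, with Cpa3 the most abundant member in each of the 6. Without a sample, the 9 falls were kept in 6, 6 and 5 without NUP98-NSD1 replicates 1, 2 and 3, and 9, 9 and 7 without combined replicates 1, 2 and 3. In these bulk samples fewer mast cells and less mast cell RNA per cell cannot be told apart. A miRNA gene, Mir7007, lies within Cpa3, was listed at 0 in all combined samples and at 199, 104 and 114 in the fusion samples, and how fragments were divided between the pair is uncertain.

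Surface and signalling genes of mast cells gave falls only. Of 14 genes for the IgE receptor and mast cell surface, 11 were tested and 8 fell, at a median of -3.71. Fcer1a, the subunit that binds IgE, had 2559, 2672 and 3465 FPKM in the fusion samples and 40.3, 254 and 39.1 in the combined samples (-5.26 ± 0.70 (SE, n = 3 and 3), adjusted p = 0.00986), a call kept without each sample. The beta subunit Ms4a2 was at 588, 652 and 917 and 18.1, 78.3 and 11.1 (-4.74, adjusted p = 0.0107). Fcer1g, the signalling chain that mast cells share with neutrophils and macrophages, did not follow: it was at 1077, 1018 and 1128 and 652, 1251 and 1458 FPKM, with overlapping groups (-0.02, adjusted p = 0.986). Kit, the receptor for the stem cell factor in the medium, fell from 387, 382 and 561 to 35.98, 70.7 and 8.27 FPKM (-3.91 ± 0.69 (SE, n = 3 and 3), adjusted p = 0.0211), and combined replicate 3 was the lowest. Il1rl1, the receptor for interleukin 33, fell from 279.7, 259 and 329 to 7.24, 38.7 and 4.902 (-4.53, adjusted p = 0.01196). The adenosine receptor Adora3 (-3.82, adjusted p = 0.00992), the adaptor Lat (-3.71, adjusted p = 0.0146), Cd200r3 (-3.40, adjusted p = 0.0252) and the granule membrane protein Cd63 (-1.65, adjusted p = 0.0386) fell as well. Lat2 lay below the fusion samples in each combined sample and was not called (-1.47, adjusted p = 0.0666). Summed over the list, the fusion samples held 7641, 7888 and 10210.2 FPKM and the combined samples 1302, 2831 and 2765. The most abundant member was Fcer1a in each fusion sample and Fcer1g in each combined sample. The 8 falls were kept in 5, 4 and 2 without NUP98-NSD1 replicates 1, 2 and 3, and 8, 7 and 6 without combined replicates 1, 2 and 3.

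The enzymes with which mast cells make serotonin, eicosanoids and heparin were lower in part. All 14 were tested, 8 fell and the median was -1.59. Tph1, the rate-limiting enzyme of serotonin synthesis, was at 2033, 2399.5 and 3493 FPKM in the fusion samples and 57.01, 389 and 45.7 in the combined samples (-4.66 ± 0.78 (SE, n = 3 and 3), adjusted p = 0.01798). Slc18a2, which loads amines into vesicles, was at 196, 186 and 224 and 6.605, 28.2 and 3.99 (-4.29, adjusted p = 0.0108), and Maob, which degrades amines, at 170.1, 169 and 221 and 2.57, 23.2 and 2.77 (-4.76, adjusted p = 0.0127). The heparin enzyme Ndst2 (-3.83, adjusted p = 0.0113) and the leukotriene enzymes Alox5 (-3.49, adjusted p = 0.0213) and Ltc4s (-2.57, adjusted p = 0.00542) fell, as did Hpgds (-1.83, adjusted p = 0.0401), the prostaglandin D synthase. Srgn, the core protein that carries heparin in mast cells and other proteoglycans in neutrophils, fell less, from 2161, 2209 and 2344 to 972, 807 and 842 FPKM (-1.36, adjusted p = 0.0173). Hdc, which makes histamine, was at 102, 169 and 51.8 and 77.5, 129 and 8.08 FPKM, overlapping between groups and lowest in combined replicate 3. Without fusion replicates 1, 2 and 3 the 8 falls were kept in 4, 4 and 1, and without combined replicates 1, 2 and 3 in 8, 8 and 5. The list summed to 6040.0, 6455 and 8067 FPKM in the fusion samples and 1707, 2169 and 1891 in the combined samples.

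**Figure D4:**
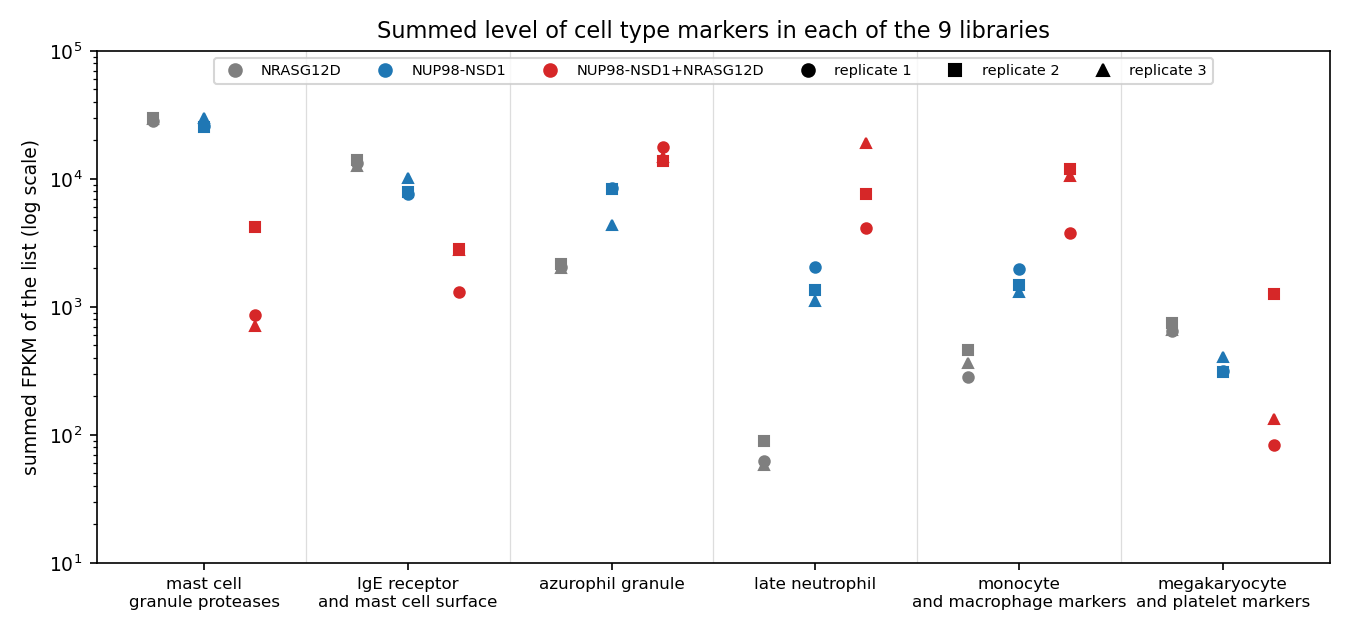
Summed FPKM of 6 marker lists in each of the 9 samples on a log scale, with NRASG12D in grey, fusion in blue, combined in red and 1 symbol per replicate. Mast cell proteases summed to 858, 4178 and 707 in combined replicates 1, 2 and 3 against 25663, 25451 and 29929 in the fusion samples, and late neutrophil genes to 4108, 7651 and 19033 against 2032, 1348 and 1117.

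The transcription factors that specify mast cells, megakaryocytes and erythroid cells moved unequally. Of 12 genes, 11 were found and tested, 3 fell, and the median was -0.80. Gata2, which is needed for mast cell and stem cell identity, was at 304, 349 and 479.9 FPKM in the fusion samples and 25.6, 59.5 and 6.47 in the combined samples (-4.02 ± 0.70 (SE, n = 3 and 3), adjusted p = 0.01998). Gata1 was at 59.3, 67.5 and 78.5 and 3.74, 12.6 and 1.22 (-3.72, adjusted p = 0.01602) and Tal1 at 64.5, 72.4 and 91.3 and 11.1, 16.001 and 1.43 (-3.26, adjusted p = 0.0335). In these 3 genes combined replicate 3 was the lowest of the 6 samples and replicate 2 the highest of its group. The 3 falls were kept in 0, 0 and 0 without NUP98-NSD1 replicates 1, 2 and 3, and 3, 3 and 3 without combined replicates 1, 2 and 3. Gfi1b (-2.02, adjusted p = 0.0587) and Mitf, the master regulator of mast cell granule genes (15.1, 14.5 and 17.6 and 4.13, 12.3 and 6.02 FPKM, -1.09, adjusted p = 0.102), lay below the fusion samples in every combined sample and were not called.

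Markers of neighbouring lineages follow. Of 8 basophil genes, 7 were tested and 2 fell, at a median of -1.71. Mcpt8, the most abundant of them in the fusion samples and the defining basophil protease, was at 573, 991 and 693 FPKM in the fusion samples and 200.1, 333 and 17.97 in the combined samples (-2.76, adjusted p = 0.144, not called), and combined replicate 3 stood lowest. Il6, counted here because basophils and mast cells secrete it, fell from 32.6, 35.9 and 36.8 to 0.871, 5.67 and 0.613 (-3.73 ± 0.52 (SE, n = 3 and 3), adjusted p = 0.0107). The list summed to 925, 1676 and 1025 FPKM in the fusion samples and 333, 519.6 and 55.2 in the combined samples. Among 12 megakaryocyte and platelet genes, 7 were tested and 3 fell, at a median of -1.08. Itga2b, the integrin that mast cells also carry, fell from 209, 205 and 276 to 11.6, 50.1 and 4.43 FPKM (-3.91, adjusted p = 0.0251), together with Gp1ba (-3.88, adjusted p = 0.0107) and Gp5 (-2.62, adjusted p = 0.0437). Pf4, platelet factor 4, ran the other way without a call, at 29.8, 32.7 and 22.2 FPKM in the fusion samples and 62.8, 1157 and 111 in the combined samples. All 3 combined samples lay above the fusion samples, replicate 2 by far the most, and its sum over the list was 1265 against 83.9 and 133 in replicates 1 and 3. Gp6, Gp1bb, Clec1b and Treml1, further markers of that lineage, were under 1 FPKM in all 6 samples. Limma called none of the 8 tested of 12 erythroid genes (5 at an unadjusted p under 0.05, beside 24.6% of all tested genes), at a median of -1.24. Their sum was 180.1, 261 and 139 FPKM in the fusion samples and 126, 139 and 37.1 in the combined samples, and Alas2, Car1 and Slc4a1 stayed under 1 FPKM throughout. The 2 basophil falls were kept in 1, 1 and 0 without NUP98-NSD1 replicates 1, 2 and 3, and 2, 2 and 1 without combined replicates 1, 2 and 3, and the 3 megakaryocyte falls in 1, 1 and 0 without NUP98-NSD1 replicates 1, 2 and 3, and 2, 3 and 1 without combined replicates 1, 2 and 3.

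Gata1 and Gata2 fell beside the mast cell genes, and the promoters of those genes were searched for the core that GATA factors recognise, AGATAA or TGATAA, on both strands. Windows of 300 bases, 250 before to 50 after the start of the gene, were taken from RefSeq on GRCm38.p6, and 21 of the 25 genes called lower in the 3 mast cell lists had such a window. The motif was present in 10 of them (47.6%), in 14.2% of the 606 windows of all genes called lower, in 10.3% of the 8995 windows of tested genes and in 18.9% of windows over the 27025 genes of the whole table, with 1 window used for each gene. A match describes these letters and no binding was measured. The windows of the 4 largest falls that held a match are shown with the motif in capitals, 5′ to 3′ on the strand of the gene: Fcer1a at chr1:173227180-173227479, minus strand, Mcpt4 at chr14:56062261-56062560, minus strand, Ms4a2 at chr19:11623670-11623969, minus strand, and Tpsg1 at chr17:25369023-25369322, plus strand.
Fcer1a: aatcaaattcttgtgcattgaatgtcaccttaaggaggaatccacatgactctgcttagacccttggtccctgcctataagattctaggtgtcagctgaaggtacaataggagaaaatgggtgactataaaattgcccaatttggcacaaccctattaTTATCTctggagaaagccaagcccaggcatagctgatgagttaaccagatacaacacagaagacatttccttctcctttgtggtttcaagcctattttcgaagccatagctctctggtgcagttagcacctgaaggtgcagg
Mcpt4: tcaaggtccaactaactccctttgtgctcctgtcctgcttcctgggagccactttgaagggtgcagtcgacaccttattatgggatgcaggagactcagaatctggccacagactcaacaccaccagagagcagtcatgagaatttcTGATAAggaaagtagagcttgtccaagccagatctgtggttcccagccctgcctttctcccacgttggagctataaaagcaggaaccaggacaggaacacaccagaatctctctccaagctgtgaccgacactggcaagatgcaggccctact
Ms4a2: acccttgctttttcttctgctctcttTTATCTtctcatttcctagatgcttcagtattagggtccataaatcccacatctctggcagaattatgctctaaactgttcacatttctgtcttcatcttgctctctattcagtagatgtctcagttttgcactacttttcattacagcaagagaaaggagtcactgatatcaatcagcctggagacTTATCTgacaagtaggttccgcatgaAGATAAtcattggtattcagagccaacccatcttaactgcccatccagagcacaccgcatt
Tpsg1: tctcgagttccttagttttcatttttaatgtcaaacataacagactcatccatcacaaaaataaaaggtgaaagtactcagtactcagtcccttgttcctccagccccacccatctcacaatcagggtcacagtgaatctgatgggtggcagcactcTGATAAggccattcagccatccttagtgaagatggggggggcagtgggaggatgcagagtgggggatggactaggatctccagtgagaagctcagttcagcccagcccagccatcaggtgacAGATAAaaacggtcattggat
Ms4a2 held 3 matches, Tpsg1 2, and Fcer1a and Mcpt4 1 each, and the Cma1, Tph1 and Kit windows held none.

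Neutrophil genes are given as 2 lists, late development and azurophil granules, and the difference between the lists was not tested. Of 22 genes of late neutrophil development, 21 were tested, 9 rose, none fell, and every tested member had a positive log2 fold change, at a median of 2.25 beside -0.06 for all tested genes. S100a8 and S100a9 encode the calprotectin pair of the neutrophil cytosol. S100a8 was at 410.1, 265 and 300.2 FPKM in the fusion samples and 1431, 2049 and 8629 in the combined samples (3.20 ± 0.65 (SE, n = 3 and 3), adjusted p = 0.0312). S100a9 was at 181, 113 and 122 and 527, 1091 and 4273 (3.30, adjusted p = 0.0371). The study named both from these samples, so that their rise is not independent evidence. In both, combined replicate 3 held several times the level of the other 2, and the groups did not overlap. Lcn2, an iron-scavenging granule protein, rose from 34.99, 20.5 and 29.8 to 87.6, 149.8 and 424 (2.63, adjusted p = 0.0334), Camp, the cathelicidin, from 23.4, 7.74 and 5.17 to 31.6, 68.4 and 61.5 (2.25, adjusted p = 0.0496), and the collagenase Mmp8 from 169, 71.6 and 131 to 471, 502 and 370.4 (1.92, adjusted p = 0.0193). The lectin Fcnb was nearly equal in the 3 combined samples, at 94.2, 84.1 and 91.4 FPKM against 32.8, 20.8 and 7.72 (2.29, adjusted p = 0.02996). Itgb2l (2.25, adjusted p = 0.0413), Wfdc21 (2.13, adjusted p = 0.04805) and the chemokine receptor Cxcr2 (1.39, adjusted p = 0.0263) rose too. Retnlg, a marker of mature neutrophils, was at 0.6598, 0 and 0.718 FPKM in the fusion samples and 1.45, 19.5 and 356 in the combined samples, and it was not called (4.21, adjusted p = 0.163). It reached 1 FPKM in the combined samples alone and passed the filter only through them, so no support is drawn from its rise. Of the 22 listed genes, 3, 4 and 3 were under 1 FPKM in fusion replicates 1, 2 and 3, so the filter entered the shared sign. Cd177 was at 15.9, 59.3 and 227 and Padi4 at 12.1, 74.6 and 173 FPKM in the combined samples, also highest in replicate 3 and not called. The list summed to 2032, 1348 and 1117 FPKM in the fusion samples and 4108, 7651 and 19033 in the combined samples, with S100a8 the most abundant in each. The 9 rises were kept in 3, 1 and 1 without NUP98-NSD1 replicates 1, 2 and 3, and 9, 3 and 3 without combined replicates 1, 2 and 3. How far the mix of cell types in each culture entered these values was not tested.

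Azurophil granule genes, which are switched on in promyelocytes, followed no common direction. Of 11, 10 were tested, 1 rose, 1 fell and the median was 0.73, beside 2.3% called higher and 6.31% called lower among all tested genes. Lyz2, lysozyme of neutrophils and macrophages, rose from 1472, 1042 and 1292 to 3370.1, 8813 and 9554 FPKM (2.39 ± 0.47 (SE, n = 3 and 3), adjusted p = 0.02798). Serpinb1a, an elastase inhibitor that mast cells also express, fell from 809.5, 878 and 1188 to 274, 327 and 313 (-1.63, adjusted p = 0.0103). Mpo, myeloperoxidase, was at 2311, 2554 and 463 FPKM in the fusion samples and 5139.6, 1463 and 131 in the combined samples. It spanned the groups, from the highest of the 6 samples in combined replicate 1 to the lowest in combined replicate 3. Elane had 1289, 1224 and 175 and 3767, 994 and 1945 FPKM and Prtn3 891, 783 and 196 and 2499, 726 and 1212, both highest in combined replicate 1 and lowest in fusion replicate 3. None of the 3 was called. Without a sample, the rise of Lyz2 was kept in 0, 0 and 0 without NUP98-NSD1 replicates 1, 2 and 3, and 1, 0 and 0 without combined replicates 1, 2 and 3, and the fall of Serpinb1a in 1, 0 and 1 without NUP98-NSD1 replicates 1, 2 and 3, and 1, 1 and 1 without combined replicates 1, 2 and 3. The sums of the list were 8539, 8293 and 4339.7 FPKM in the fusion samples and 17660.5, 13673 and 14661 in the combined samples. Lyz2 shares 15.4% of its stretches of 50 bases with Lyz1, so fragments of the pair can be split between them.

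Stefins, small cysteine protease inhibitors of neutrophils that lie in a cluster of the mouse genome, included the largest called rise of a named gene, Cstdc5. Of 16 stefin and cystatin genes, 14 were found and 13 tested, 4 rose, 1 fell and the median was 3.81. Cstdc5 was at 57.5, 24.4 and 58.2 FPKM in the fusion samples and 219, 1058 and 4076 in the combined samples (4.47 ± 0.99 (SE, n = 3 and 3), adjusted p = 0.0399). Csta2 was at 35.8, 15.01 and 23.4 and 109, 277 and 1528 (3.89, adjusted p = 0.04505), and Cstdc6 at 7.64, 3.27 and 6.24 and 24.4, 89.999 and 319.6 (3.81, adjusted p = 0.0405). In each the levels of the combined samples differed severalfold, with replicate 3 the highest. Cstdc5, Csta2 and Cstdc6 were named by the study from these samples, so that their rise is not independent evidence. Stfa1 was more even, at 285, 468 and 545 against 88.3, 33.7 and 63.8 FPKM (2.84, adjusted p = 0.0107), and kept its call without each sample. Stfa3 had 5.95, 0.966 and 6.83 and 20.8, 119.6 and 969 FPKM and was not called (4.85, adjusted p = 0.0672). Cst7, cystatin F, which is not part of that cluster, fell from 332, 354 and 278 to 191, 119.8 and 122 (-1.18, adjusted p = 0.0296). The 4 rises were kept in 1, 1 and 1 without NUP98-NSD1 replicates 1, 2 and 3, and 4, 1 and 2 without combined replicates 1, 2 and 3, and the fall of Cst7 in 0, 0 and 0 without NUP98-NSD1 replicates 1, 2 and 3, and 1, 0 and 0 without combined replicates 1, 2 and 3. Cstdc6 shares 33.7% of its stretches of 50 bases with transcripts of other genes, Cstdc5 25.1%, Stfa1 22.5% and Csta2 20.4%, so the division of fragments among them is uncertain. The list summed to 1315, 1145 and 1176 FPKM in the fusion samples and to 1767, 3948 and 12309 in the combined samples.

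Most macrophage and monocyte genes had higher values, the larger part without a call. Of 30 genes, 29 were tested, 8 rose and 1 fell, and 28 had a positive log2 fold change, at a median of 1.89. Lgals3, galectin 3, rose from 340.3, 254 and 288 to 677, 3138 and 2393 FPKM (2.55 ± 0.56 (SE, n = 3 and 3), adjusted p = 0.0386), and Ly6c2, a marker of inflammatory monocytes, from 611, 465 and 245 to 1345, 1384 and 3674 (adjusted p = 0.0444). Itgam, the CD11b integrin subunit, was at 16.8, 12.01 and 12.1 and 31.6, 117 and 138 FPKM (2.49, adjusted p = 0.0363), although 66.3% of its stretches of 50 bases also occur in an overlapping predicted gene. Cd14, the lipopolysaccharide co-receptor, measured 18.4, 17.1 and 9.36 and 42.2, 80.996 and 238 (2.62, adjusted p = 0.0446), F13a1 129, 74.8 and 46.4 and 332, 269 and 616 (2.30, adjusted p = 0.0271). Mpeg1 (2.25, adjusted p = 0.0309) and Sirpa (1.89, adjusted p = 0.02504) completed the macrophage genes named here. Fn1 rose from a low level, 0.381, 0.445 and 0.603 to 1.43, 3.1004 and 3.12 FPKM (1.23, adjusted p = 0.0296). It reached 1 FPKM in the combined samples alone and passed the filter only through them, so no support is drawn from its call. The fractalkine receptor Cx3cr1 fell, from 15.7, 10.7 and 9.97 to 4.36, 2.83 and 2.36 (-1.65, adjusted p = 0.0136). Gpnmb, a marker of lipid-laden macrophages, was at 118, 84.1 and 93.1 and 196, 2209.5 and 1481 FPKM, short of a call (3.13, adjusted p = 0.06704). C1qc, a complement gene of resident macrophages, was at 18.04, 12.9 and 8.15 and 16.2, 346 and 56.4, high in combined replicate 2 and within the fusion range in replicate 1. The list summed to 1969, 1482 and 1293 FPKM in the fusion samples and to 3768, 11836 and 10549.8 in the combined samples. Of the 8 rises, the fits kept 1, 0 and 0 without NUP98-NSD1 replicates 1, 2 and 3, and 8, 2 and 0 without combined replicates 1, 2 and 3, and of the fall of Cx3cr1 0, 0 and 1 without NUP98-NSD1 replicates 1, 2 and 3, and 1, 1 and 1 without combined replicates 1, 2 and 3.

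The same RefSeq windows were searched for TTGCNNAA, on both strands, a form of the site of C/EBP factors, which drive granulocyte genes. Of the 9 late neutrophil genes that rose, 8 had a window and 4 of these held the motif (50.0%), beside 14.9% of 228 windows of all genes called higher, 8.42% of 8995 windows of tested genes and 10.7% of windows over all genes of the table. The windows of the pair with the largest rises among them follow, with the motif in capitals: S100a9 at chr3:90695672-90695971, minus strand and Lcn2 at chr2:32387690-32387989, minus strand.
S100a9: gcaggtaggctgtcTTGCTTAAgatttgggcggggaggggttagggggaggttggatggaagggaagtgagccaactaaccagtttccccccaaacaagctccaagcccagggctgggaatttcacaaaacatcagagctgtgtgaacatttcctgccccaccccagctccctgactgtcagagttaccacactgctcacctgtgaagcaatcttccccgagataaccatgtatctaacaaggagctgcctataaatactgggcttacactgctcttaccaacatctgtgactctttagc
Lcn2: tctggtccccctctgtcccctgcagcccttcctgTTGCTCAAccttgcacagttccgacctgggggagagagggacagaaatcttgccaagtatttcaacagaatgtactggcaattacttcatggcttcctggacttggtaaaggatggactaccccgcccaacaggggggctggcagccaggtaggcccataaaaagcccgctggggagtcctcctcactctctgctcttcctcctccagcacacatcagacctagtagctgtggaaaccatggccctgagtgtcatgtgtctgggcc
The S100a8 window held no match to these letters.

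Transcription factors of myeloid cells gave 2 rises and 1 fall among 13 tested of 16, at a median of 0.80. The shares over all tested genes were 2.3% called higher and 6.31% called lower. Cebpb, a C/EBP factor of macrophages and stress granulopoiesis, was low throughout, at 1.17, 1.36 and 0.822 FPKM in the fusion samples and 3.37, 2.84 and 3.89 in the combined samples (1.04, adjusted p = 0.0211). Outside the combined samples it reached 1 FPKM only in fusion replicates 1 and 2, so it passed the filter through the group where it was high. Its locus overlaps the gene Tmem189, with 0% of its stretches of 50 bases shared, and how fragments were divided was not measured. Cebpe, needed for late granules, was at 82.7, 63.99 and 15.8 and 133, 94.8 and 136 (1.42, adjusted p = 0.187, not called). Irf5, a factor of inflammatory macrophages, rose from 27.1, 22.7 and 19.4 to 50.6, 64.9 and 44.6 (1.17, adjusted p = 0.0196). Runx1, a core haematopoietic factor, fell from 81.95, 76.4 and 78.2 to 43.1, 38.5 and 21.8 FPKM (-1.23 ± 0.26 (SE, n = 3 and 3), adjusted p = 0.0347). The 2 rises were kept in 1, 0 and 0 without NUP98-NSD1 replicates 1, 2 and 3, and 2, 2 and 1 without combined replicates 1, 2 and 3, and the fall in 0, 0 and 0 without NUP98-NSD1 replicates 1, 2 and 3, and 1, 0 and 1 without combined replicates 1, 2 and 3. Id2, the most abundant member in the fusion samples, had 372, 331 and 489.8 and 149, 293 and 127 FPKM (-1.14, adjusted p = 0.0899).

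Genes of stem cells and leukaemic self-renewal gave falls only. Of 21, 18 were tested, 4 fell and the median was -0.55. Meis1, a partner of HOXA9, was at 39.4, 40.2 and 49.4 FPKM in the fusion samples and 8.35, 11.5 and 9.02 in the combined samples (-2.06 ± 0.18 (SE, n = 3 and 3), adjusted p = 0.00542). Mecom had 5.22, 6.87 and 10.5 and 0.443, 0.891 and 0.0454 FPKM (-2.54, adjusted p = 0.00846), and Hlf 4.403, 6.18 and 8.75 and 0.758, 0.874 and 0.09004 (-2.24, adjusted p = 0.0102). These 3 calls were kept without each sample. Erg fell from 20.1, 18.9 and 24.2 to 10.1, 8.32 and 3.22 (-1.53, adjusted p = 0.0484). The 4 falls were kept in 3, 3 and 3 without NUP98-NSD1 replicates 1, 2 and 3, and 4, 3 and 4 without combined replicates 1, 2 and 3. Cd34, a surface protein of progenitors and of mouse mast cells, was at 400.1, 431 and 492 FPKM in the fusion samples and 117, 72.9 and 9.53 in the combined samples and was not called (-3.29, adjusted p = 0.0568). Ly6a, the Sca-1 antigen and the most abundant member, was at 492, 671 and 993 and 337, 779 and 179, with overlapping groups. Meis1, Mecom, Hlf and Cd34 were also at 46.3, 49.3 and 49.5, 9.24, 7.75 and 8.76, 1.64, 1.97 and 1.83 and 307, 333 and 341 FPKM in NRASG12D samples, the cultures that the study describes as mostly mast cells, and how far their falls move with those of the mast cell lists was not tested.

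Markers of other blood cells were sparse. Their calls stand beside 2.3% called higher and 6.31% called lower among all tested genes, and their unadjusted p under 0.05 beside 24.6%. Of 14 dendritic cell and MHC class II genes, 13 were found and 9 tested, and limma called none (0 at an unadjusted p under 0.05), at a median of -0.44. Cd74, the invariant chain and the most abundant of them, was at 407, 265 and 361 FPKM in the fusion samples and 419, 627 and 132 in the combined samples, lowest in combined replicate 3. The list summed to 587, 406 and 555 and 607, 808 and 197 FPKM, and Siglech, Xcr1, Cd209a and Zbtb46 were under 1 FPKM in all 6 samples. Of 9 eosinophil genes, 6 were tested, at a median of 0.50, and Il5ra fell, from 1.36, 1.74 and 1.57 to 0.136, 0.622 and 0.0537 FPKM (-1.03, adjusted p = 0.02996). That call was kept in 0, 0 and 0 without NUP98-NSD1 replicates 1, 2 and 3, and 1, 1 and 0 without combined replicates 1, 2 and 3. Prg2, eosinophil major basic protein and the most abundant member, was at 15.5, 25.4 and 5.09 and 26.7, 196 and 2.84, high in combined replicate 2. The eosinophil list summed to 31.1, 43.02 and 11.4 and 48.1, 231 and 7.59. Of 15 markers of B, T and NK cells, 2 passed the filter and limma called neither (0 at an unadjusted p under 0.05), at a median of -0.39. Nkg7, which basophils and other granular cells share with lymphocytes, made up most of their sum, at 147, 153 and 29.8 FPKM in the fusion samples and 305, 86.9 and 8.34 in the combined samples. Cd3e, Cd8a, Ms4a1, Pax5 and Rag1 were among 12 members under 1 FPKM in all 6 samples, and the whole list summed to 153, 157 and 32.2 and 315, 88.9 and 8.86.

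Secreted signals gave calls in both directions. Of 22 cytokines and chemokines, 18 were tested, 2 rose and 4 fell, at a median of 1.60. Cxcl2, which attracts neutrophils, rose from 2.34, 2.27 and 2.28 to 9.33, 24.9 and 20.2 FPKM (2.44 ± 0.34 (SE, n = 3 and 3), adjusted p = 0.0107), and Il18 from 1.52, 1.55 and 2.57 to 7.41, 8.65 and 4.88 (1.46, adjusted p = 0.0198). Osm, oncostatin M, fell from 67.3, 56.5 and 51.2 to 16.2, 19.002 and 22.3 (-1.56, adjusted p = 0.00772), Tnf from 28.96, 29.7 and 23.9 to 2.37, 10.2 and 8.83 (-1.98, adjusted p = 0.0417) and Tgfb1 from 38.7, 55.9 and 63.9 to 25.2, 23.1 and 16.2 (-1.25, adjusted p = 0.0298), beside Il6. Ccl6, the most abundant member in the combined samples, was at 249, 360.3 and 151 FPKM in the fusion samples and 295, 2997 and 3550.2 in the combined samples. Replicates 2 and 3 stood above all fusion samples and replicate 1 among them, and it was not called (2.61, adjusted p = 0.142). Ccl4, a chemokine gene with no call (2.71, adjusted p = 0.126), had 39.9, 51.1 and 29.1 and 56.2, 335 and 929 FPKM. The 2 rises were kept in 1, 1 and 1 without NUP98-NSD1 replicates 1, 2 and 3, and 2, 2 and 2 without combined replicates 1, 2 and 3, and the 4 falls in 3, 2 and 1 without NUP98-NSD1 replicates 1, 2 and 3, and 4, 3 and 2 without combined replicates 1, 2 and 3.

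Receptors for the growth factors of the culture were among the falling genes. Of 25 cytokine receptor genes, 24 were tested, 2 rose, 6 fell and the median was -0.37. Csf2rb, the beta chain shared by receptors for interleukin 3, interleukin 5 and GM-CSF, was at 349.8, 367 and 502 FPKM in the fusion samples and 104, 193 and 127 in the combined samples (-1.55 ± 0.28 (SE, n = 3 and 3), adjusted p = 0.0217). Csf2rb2, the beta chain of a receptor for interleukin 3 alone, fell from 378, 380.4 and 552 to 34.3, 107 and 42.5 (-2.97, adjusted p = 0.0110). The pair share sequence, 18.9% of the stretches of 50 bases of Csf2rb2 occurring in other genes. Csf2ra, the GM-CSF receptor alpha chain, rose from 92.1, 75.5 and 72.8 to 123, 254 and 191 (1.17, adjusted p = 0.0487), and the TNF receptor Tnfrsf1b from 25.8, 26.4 and 20.9 to 36.2, 66.6 and 72.5 (1.17, adjusted p = 0.0487). Tgfbr1 fell from 58.3, 58.96 and 92.8 to 9.44, 21.6 and 10.95 (-2.30, adjusted p = 0.01195), and Kit, Il1rl1 and Il5ra are the remaining falls. These falls ran with those of the mast cell genes, and all 6 genes were highest in the NRASG12D samples, where mast cell genes were abundant, Csf2rb at 742, 729.5 and 759, Csf2rb2 at 888, 841 and 945 and Tgfbr1 at 173, 169.9 and 175 FPKM. Fewer mast cells and less receptor RNA per cell were not separated. Csf1r, the macrophage growth factor receptor, was at 38.4, 29.8 and 27.4 and 66.8, 158 and 60.8 FPKM, higher in each combined sample and not called (1.42, adjusted p = 0.0618). The 6 falls were kept in 3, 3 and 0 without NUP98-NSD1 replicates 1, 2 and 3, and 6, 6 and 4 without combined replicates 1, 2 and 3, and the 2 rises in 0, 0 and 0 without NUP98-NSD1 replicates 1, 2 and 3, and 2, 0 and 0 without combined replicates 1, 2 and 3. Of 15 receptors for chemokines and other attractants, 12 were tested, 2 rose and 1 fell, at a median of 1.00. C5ar1, the receptor for complement fragment C5a, rose from 10.7, 7.96 and 11.6 to 25.4, 112 and 105 (2.63, adjusted p = 0.0334). Cxcr2 had 4.26, 3.37 and 2.26 and 11.96, 7.25 and 11.8 FPKM. The pair of rises was kept in 0, 0 and 0 without NUP98-NSD1 replicates 1, 2 and 3, and 2, 1 and 0 without combined replicates 1, 2 and 3.

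Adhesion genes gave calls in both directions. Of 22 integrins and selectin ligands, 19 were tested, 4 rose, 3 fell and the median was 0.67. Itgb7 fell from 193, 180.4 and 236 to 68.2, 54.5 and 37.2 FPKM (-1.94 ± 0.25 (SE, n = 3 and 3), adjusted p = 0.00925) and its partner Itgae from 2.84, 2.71 and 4.17 to 0.569, 0.849 and 0.182 (-1.48, adjusted p = 0.01504), beside Itga2b. Itgal, the LFA-1 alpha chain, rose from 8.16, 11.3 and 5.39 to 17.9, 20.5 and 20.9 (1.21, adjusted p = 0.0337), Itga1 from 1.35, 0.80003 and 0.7601 to 5.09, 4.69 and 9.59 (1.87, adjusted p = 0.0127) and the hyaluronan receptor Cd44 from 32.2, 26.8 and 25.1 to 41.8, 65.1 and 61.3 (0.96, adjusted p = 0.0397), beside Itgam. Outside the combined samples Itga1 reached 1 FPKM only in fusion replicate 1. It thus passed the filter through the group where it was high, and no support is drawn from its call. Itgb2, the beta chain that Itgam and Itgal share, was at 84.1, 66.5 and 47.7 and 113, 299 and 631 FPKM, higher in each combined sample and short of a call (2.09, adjusted p = 0.0764). The 4 rises were kept in 1, 1 and 0 without NUP98-NSD1 replicates 1, 2 and 3, and 4, 1 and 1 without combined replicates 1, 2 and 3, and the 3 falls in 1, 1 and 1 without NUP98-NSD1 replicates 1, 2 and 3, and 3, 3 and 2 without combined replicates 1, 2 and 3. Among 21 genes of extracellular proteolysis and vessel growth, 16 were tested and 4 rose, at a median of 1.41. Spp1, osteopontin, was at 316, 243 and 177 FPKM in the fusion samples and 1259, 5746 and 10243 in the combined samples (4.13 ± 0.74 (SE, n = 3 and 3), adjusted p = 0.0217). Mmp19 rose from 9.41, 6.88 and 4.09 to 16.2, 28.01 and 21.99 (1.59, adjusted p = 0.0291), beside Mmp8 and Fn1. Fn1 passed the filter only through the combined samples. Anpep, aminopeptidase N, had 229.9, 257 and 374 and 8.31, 165 and 12.8 FPKM, not called (-3.34, adjusted p = 0.0931). These 4 rises were kept in 2, 1 and 0 without NUP98-NSD1 replicates 1, 2 and 3, and 4, 1 and 0 without combined replicates 1, 2 and 3.

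Phagocytes sense microbes and antibodies with surface receptors. Of 21 Fc gamma, C-type lectin and Toll-like receptor genes, 20 were tested, 6 rose, 14 were not called, all had a positive log2 fold change, and the median was 1.39. Fcgr4, an activating IgG receptor, rose from 2.38, 1.47 and 2.08 to 7.63, 19.3 and 16.4 FPKM (2.30 ± 0.34 (SE, n = 3 and 3), adjusted p = 0.0123). Clec4d was at 22.1, 15.5 and 13.9 and 41.1, 106 and 135 (2.25, adjusted p = 0.0277), Tlr13 at 7.87, 4.38 and 7.104 and 15.9, 50.9 and 38.8 (2.17, adjusted p = 0.0296), and Tlr2, the receptor for bacterial lipopeptides, at 21.1, 12.3 and 14.5 and 32.2, 47.2 and 48.9 (1.38, adjusted p = 0.0241). Clec4a2 (1.39, adjusted p = 0.0424) and Cd14 are the other rises. The 6 were kept in 2, 0 and 0 without NUP98-NSD1 replicates 1, 2 and 3, and 6, 1 and 1 without combined replicates 1, 2 and 3, and none in all 6 of these fits. Of 5 tested genes of the phagocyte oxidase, Cybb, its catalytic subunit, rose from 33.2, 19.4 and 23.2 to 56.2, 144 and 87.02 FPKM (1.81, adjusted p = 0.02996) and Ncf1 from 61.8, 50.9 and 39.1 to 88.2, 109.9 and 155 (1.19, adjusted p = 0.0399), kept in 0, 0 and 0 without NUP98-NSD1 replicates 1, 2 and 3, and 2, 1 and 0 without combined replicates 1, 2 and 3. The median of that list was 0.68. Of 24 lysosome genes, all tested, 3 rose and the median was 0.89. Ctsh rose from 23.3, 13.7 and 25.8 to 75.8, 55.8 and 62.9 (1.62, adjusted p = 0.0157), Psap from 596, 492 and 441 to 983, 2424 and 1565 (1.61, adjusted p = 0.0401) and Lamp1 from 54.9, 60.4 and 57.96 to 102, 163 and 111 (1.07, adjusted p = 0.0268), and these were kept in 1, 1 and 1 without NUP98-NSD1 replicates 1, 2 and 3, and 3, 3 and 0 without combined replicates 1, 2 and 3. Ctsl was at 63.6, 49.9 and 42.7 and 126, 811 and 236 FPKM, high in combined replicate 2 and not called (2.47, adjusted p = 0.05796). Ctsd, the most abundant lysosomal gene of the fusion samples, was at 1258, 1281 and 1382 and 676, 3569 and 2921, with combined replicate 1 below and replicates 2 and 3 above the fusion samples. It shares 32.4% of its stretches of 50 bases with an overlapping predicted gene.

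Interferon-stimulated genes, which defend against viruses, gave 1 call. Of 20, 19 were tested and all had a positive log2 fold change, at a median of 1.78. The combined samples lay above every fusion sample in 15 of the 19, beside 11.6% of all tested genes. Oas1a, a sensor of double-stranded RNA, rose from 12.1, 14.9 and 23.2 to 42.9, 140.2 and 75.1 FPKM (2.18 ± 0.44 (SE, n = 3 and 3), adjusted p = 0.0303), kept in 0, 0 and 0 without NUP98-NSD1 replicates 1, 2 and 3, and 1, 1 and 0 without combined replicates 1, 2 and 3. It shares 57.6% of its stretches of 50 bases with related genes. Isg15 was at 8.57, 16.6 and 35.8 and 41.6, 231 and 76.5 FPKM (2.32, adjusted p = 0.0943, not called), and Bst2, the most abundant, at 119.8, 147 and 176 and 194, 523 and 214 (0.93, adjusted p = 0.204). Combined replicate 2 was the highest sample, with a list median 3.22 above the fusion mean, against 0.67 and 1.04 in replicates 1 and 3. The fusion samples also differed, with sums of 259, 349 and 526 FPKM.

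All 22 genes of glycolysis and glucose uptake were tested, 2 rose and 1 fell, beside 2.3% called higher and 6.31% called lower among all tested genes, and the median was 0.99. Irrespective of the test, 13 lay higher and 3 lower in all 3 combined samples than in all 3 fusion samples, beside 11.6% and 19.8% of all tested genes, and 15 had an unadjusted p under 0.05, beside 24.6%. Slc16a3, the transporter that exports lactate, rose from 19.3, 16.3 and 24.8 to 86.4, 97.99 and 358 FPKM (2.81 ± 0.53 (SE, n = 3 and 3), adjusted p = 0.0251). The hexokinase genes moved apart, Hk2 rising from 16.1, 12.01 and 12.9 to 26.1, 25.2 and 29.8 (0.94, adjusted p = 0.0214) and Hk1 falling from 128, 138 and 180.4 to 62.5, 77.1 and 88.5 (-0.96, adjusted p = 0.0363). Pkm, with the highest mean over the 6 samples, was at 1418, 1269 and 941 and 2147, 1947 and 3569.5 FPKM (1.05, adjusted p = 0.108, not called), and 25.8% of its stretches of 50 bases also occur in other genes. The 2 rises were kept in 0, 0 and 0 without NUP98-NSD1 replicates 1, 2 and 3, and 2, 2 and 1 without combined replicates 1, 2 and 3, and the fall in 0, 0 and 0 without NUP98-NSD1 replicates 1, 2 and 3, and 1, 0 and 0 without combined replicates 1, 2 and 3. Among 21 tested genes of sterol and fatty acid synthesis, Lss, lanosterol synthase, fell from 51.8, 45.1 and 40.3 to 23.9, 23.6 and 30.6 (-0.79, adjusted p = 0.0387), at a list median of 0.18. Its call was kept in 0, 0 and 0 without NUP98-NSD1 replicates 1, 2 and 3, and 1, 0 and 0 without combined replicates 1, 2 and 3.

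Calls among genes of proliferation and survival are given beside the 8.61% called and the 24.6% with an unadjusted p under 0.05 among all tested genes. Limma called none of 27 tested genes of DNA replication and mitosis (1 at an unadjusted p under 0.05), at a median of -0.02, and all but 1 overlapped between the groups, where 11.6% of all tested genes lay wholly higher and 19.8% wholly lower. Their sum was 2223, 2272 and 2154 FPKM in the fusion samples and 3020.1, 1696 and 2158 in the combined samples, highest in combined replicate 1. Of 18 genes for G1 cyclins, kinases and CDK inhibitors, Ccnd1 rose and Rb1 fell (9 at an unadjusted p under 0.05), at a median of -0.16. Rb1, the retinoblastoma gene that restrains entry into S phase, was at 14.8, 19.1 and 23.9 and 4.59, 7.11 and 3.57 FPKM (-1.75 ± 0.27 (SE, n = 3 and 3), adjusted p = 0.0143), a call kept in 1, 0 and 0 without NUP98-NSD1 replicates 1, 2 and 3, and 1, 1 and 1 without combined replicates 1, 2 and 3. Ccnd2, the D-type cyclin that the fusion cultures expressed most, was at 384, 460.4 and 534 and 234, 266 and 125 FPKM, lower in each combined sample and not called (-1.20, adjusted p = 0.0635). Of 15 tested genes of the BCL2 family, Bcl2, the survival gene, fell from 13.1, 16.4 and 14.8 to 6.38, 5.296 and 1.51 (-1.68, adjusted p = 0.04897) and Bbc3, a death gene, from 29.9, 37.1 and 44.2 to 17.8, 14.1 and 8.46 (-1.44, adjusted p = 0.0296), with 7 at an unadjusted p under 0.05 and a list median of 0.44. Both falls were kept in 0, 0 and 0 without NUP98-NSD1 replicates 1, 2 and 3, and 2, 0 and 1 without combined replicates 1, 2 and 3. The most abundant member, Bax, was at 339, 377 and 330.4 and 319, 329.7 and 333.

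Calls in chromatin and housekeeping lists stand beside the 2.3% called higher and 6.31% called lower among all tested genes. Of 18 tested Polycomb and histone methyltransferase genes, Kdm6a, an H3K27 demethylase, fell from 27.6, 25.3 and 28.5 to 17.1, 18.5 and 17.6 FPKM (-0.58, adjusted p = 0.0476), kept in 0, 0 and 0 without NUP98-NSD1 replicates 1, 2 and 3, and 1, 0 and 0 without combined replicates 1, 2 and 3, and the median was -0.22. Ezh2 was at 20.3, 21.4 and 18.8 and 26.3, 10.5 and 9.4003, highest in combined replicate 1. The 85 tested ribosomal protein genes had a median of -0.01 and 1 call, Rps4l, a low-level copy, which fell from 4.24, 7.44 and 17.7 to 0.235, 1.49 and 0.0525 (-2.66, adjusted p = 0.02802) and was kept in 1, 0 and 0 without NUP98-NSD1 replicates 1, 2 and 3, and 1, 1 and 0 without combined replicates 1, 2 and 3. Their medians against the fusion mean were 0.49, -0.46 and -0.07 in combined replicates 1, 2 and 3. The 74 tested subunits of oxidative phosphorylation had a median of 0.04 and the 38 tested proteasome genes 0.14, and limma called none of either list (2 and 2 at an unadjusted p under 0.05, beside 24.6% of all tested genes). The signs of the ribosomal, oxidative phosphorylation and replication medians differed between scalings of the samples, so no direction is given for them.

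Outside the lists, the 15 strongest rises and 15 strongest falls of called protein-coding genes with at least 5 FPKM on their higher side added genes of other roles. Apoc2, an activator of lipoprotein lipase in macrophages, was at 8.03, 6.85 and 7.52 FPKM in the fusion samples and 66.1, 98.9 and 102 in the combined samples (3.39 ± 0.20 (SE, n = 3 and 3), adjusted p = 0.00361). Its 6 values formed well separated groups, although 78.3% of its stretches of 50 bases also occur in an overlapping predicted gene. The tetraspanin Cd81 rose from 35.3, 35.5 and 12.6 to 135, 227 and 259 (2.94, adjusted p = 0.0128), Slfn1 from 7.003, 9.08 and 20.9 to 29.7, 124 and 121 (2.68, adjusted p = 0.0459) and Hpse, heparanase, which cuts heparan sulfate, from 7.07, 6.47 and 5.59 to 27.8, 58.8 and 83.7 (2.84, adjusted p = 0.00986). Among the falls outside the lists, the receptor phosphatase Ptprg was at 133, 145 and 214 and 2.36, 18.8 and 1.45 FPKM (-4.88, adjusted p = 0.0135), Rprm, reprimo, at 239, 201 and 250.1 and 3.93, 25.5 and 5.19 (-4.62, adjusted p = 0.009302), Slc45a3 at 126, 124 and 154 and 2.45, 14.4 and 1.997 (-4.64, adjusted p = 0.009302), and Hs3st1, a sulfotransferase that modifies heparan chains, at 36.1, 42.6 and 54.995 and 0.268, 3.08 and 0.163 (-4.63, adjusted p = 0.00639). Each was also high in the NRASG12D samples, Ptprg at 277, 233 and 310.4 and Rprm at 391, 404 and 371 FPKM. Of these 8 genes, Slfn1 lost its call without most samples, with adjusted p up to 0.146 (without NUP98-NSD1 replicate 2), Cd81 lost it without NUP98-NSD1+NRASG12D replicate 3 (adjusted p = 0.0514) and Ptprg reached 0.0669 without NUP98-NSD1 replicate 3.

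Among the genes called with all 6 samples and in each fit without a sample, the largest rises included Cd38, Evl, Acot1 and Dpep2 beside Apoc2, Hpse, Ccnd1, Stfa1 and Atf3. Cd38, which consumes NAD, was at 2.08, 0.999 and 1.16 FPKM in the fusion samples and 7.505, 14.02 and 12.8 in the combined samples (2.35, adjusted p = 0.00845). Evl, an actin regulator, rose from 14.7, 10.8 and 9.26 to 38.04, 82.6 and 65.8 (2.28, adjusted p = 0.0104). Acot1 rose from 1.103, 0.981 and 1.19 to 6.46, 5.91 and 12.9 (2.10, adjusted p = 0.0104) and Dpep2 from 21.4, 14.6 and 21.2 to 54.1, 88.8 and 84.2 (1.92, adjusted p = 0.00936). Fusion replicate 2 was just under 1 FPKM for Cd38 and Acot1, so the fusion samples alone did not bring these genes past the filter. Dpep2 shares 34.2% of its stretches of 50 bases with other transcripts. The 10 largest falls by the same rule were Fcer1a, Mcpt4, Slc45a3, Hs3st1, Rprm, Cma1, Egr1, Hs6st2, Mab21l1 and Mcpt2. Hs6st2, a heparan sulfotransferase, was at 57.1, 60.1 and 87.9 and 1.82, 7.84 and 1.15 FPKM (-4.17, adjusted p = 0.00885), and Mab21l1 at 34.7, 25.8 and 46.2 and 0.5498, 3.34 and 0.467 (-4.05, adjusted p = 0.00726).

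The widest ranges over the 3 combined cultures, among protein-coding genes with a mean of at least 10 FPKM there, included those of the following genes. Retnlg and the stefins Stfa2 and Stfa3 were lowest in combined replicate 1 and highest in replicate 3, Retnlg at 1.45, 19.5 and 356 FPKM in replicates 1, 2 and 3. Ccl8, a monocyte chemokine, was at 4.78, 635 and 17.1 and Gas6, a ligand of TAM receptors, at 1.05, 69.6 and 3.75 FPKM, both high in replicate 2 alone. Colec12, a scavenger receptor, was at 2.07, 58.7 and 163, Prg2 at 26.7, 196 and 2.84, Nkg7 at 305, 86.9 and 8.34 and Mpo at 5139.6, 1463 and 131. None of these was called between the groups. Labels and methods name no batch or culture date to set these differences against.

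Set beside the NRASG12D cultures, which carry no fusion, most mast cell genes were abundant in NRASG12D and in fusion cultures and lower in combined cultures. The mast cell protease list summed to 28355, 29854 and 29526 FPKM in the NRASG12D samples, although Cpa3 was listed at 0 in all 3 of them, and Cma1 was at 16008, 12715 and 15911. That 0 is doubtful beside the other mast cell genes, it lowers the sum, and whether it comes from the quantification of the locus could not be settled. Kit stood at 982, 1119 and 1049 FPKM and Gata2 at 383, 492 and 450.4. Late neutrophil genes summed to 62.2, 88.7 and 57.6 and S100a8 was at 0, 3.29 and 0.249. Nras was at 354, 479 and 348 FPKM, within the range of the combined samples. The difference between the effects of NRASG12D with and without the fusion was not tested, since no sample of the series lacks both genes.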

How the data were processed

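Expression was measured by RNA sequencing in 9 samples, 6 of which were compared. The authors aligned reads to GRCm38.p6 with STAR 2.7.2a and deposited FPKM from Cufflinks 2.2.1. Lines with the same identifier were summed and values taken as log2(FPKM + 1). Groups came from the sample labels. Genes reaching 1 FPKM in 3 or more of 9 samples were fitted with limma 3.58.1 (trend of variance on mean) in R 4.3.3, with no block, and p adjusted by the Benjamini-Hochberg method at 0.05. The test was checked on simulated data in which both groups had the spread of the fusion samples. The larger spread of the combined samples was thus not covered. Single values used exact permutation. The authors' DESeq2 comparison needs counts and was not run. The contrast and the 39 gene lists were chosen with earlier results of these data known.

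Named genes were fixed names (Nras, Hras, Nup98, Nsd1, Ccnd1, Mapk13, Hoxa7, Hoxa9, Hoxa10). Others were the called and uncalled list members with the largest changes and the most abundant member, the 15 largest rises and falls, the 10 largest of each called in every fit without a sample, and the 10 widest ranges over combined cultures. From these some were left out for length, and some chosen genes are not reported here. Mir7007 and single values in NRASG12D samples were chosen after their values were seen.

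Depth was estimated from the step between low FPKM of 3386 genes with a single transcript. Shared sequence was the percent of stretches of 50 bases found in transcripts of other genes. Of 182 named genes, 33 overlap a gene with a mean of at least 1 FPKM, and the division of fragments there was not measured. Alternatives were other pseudocounts, filters, scalings, sample sets, weights, no trend and the replicate number as a block. Python 3.11.15, pandas 2.3.3, numpy 2.4.6, scipy 1.17.1 and matplotlib 3.10.9 were used.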

Additional observations from a re-analysis of the deposited data

How the results depend on the processing

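Of 1162 genes called, with 26.8% higher and 120 calls among members of the gene lists, the numbers moved with the samples that entered the fit, with the filter and with sample weights. With each sample left out in turn they ran from 283 to 2509 genes, from 8.94% to 34.9% higher and from 28 to 221 list members. With low values left in, 152 genes were called, 5.92% of them higher, with 11 list members. A fit on all 9 samples called 2251 genes (37.3% higher, 203 list members), and sample weights estimated from the data 3500 (33.8% higher, 275 list members). The share of higher calls was 30.7% with the stricter filter, 36.4% after quantile normalization, 31.1% after median-ratio scaling and 23.1% with values scaled to an equal sum. The cause of these differences was not tested. The ratio of median standard deviations, combined over fusion, was 2.13 and, without the filter, 1.23, in comparisons chosen after seeing the data.

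Among the genes named in the report, signs of 8 uncalled ones turned, and the lowest and highest log2 fold changes with a sample left out follow. Nsd1 ran from -0.268 to 0.0867, turning without fusion replicate 3 (0.00673) or combined replicate 1, and had 0.234 with sample weights. Fcer1g ran from -0.249 to 0.331, turning without fusion replicate 3 (0.01696) or combined replicate 1, and had 0.06196 after median-ratio scaling and 0.309 with sample weights. Cd74 ran from -0.522 to 0.596, turning without fusion replicate 1 (0.0795) or combined replicate 3, and had 0.0279 after median-ratio scaling. Prg2 ran from -0.424 to 2.42, turning without combined replicate 2, and had -0.863 with sample weights. The last 4 turned without combined replicate 3, Hoxa9 at -0.0148 to 0.456, Hdc at -1.86 to 0.0565, Mpo at -1.67 to 0.971 and Nkg7 at -1.63 to 0.885. The cause was not tested. No called gene among the 182 named ones changed sign under any alternative.

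With the replicate number as a replicate block, 801 genes were called (24.8% higher), 736 of them also without it. Deviations from the group means correlated at 0.1602, -0.177 and 0.02298 between samples numbered 1, 2 and 3. Between samples of unlike number the correlations ran from -0.297 to 0.310. With 3 samples a group, deviations constrain each other, so these values cannot show whether equal numbers mark a shared origin.

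With 3 samples a group and FPKM in place of counts, low genes carry counting error that the fit cannot separate from other spread. Depths from 23710000 to 30790000 fragments set how finely the lowest values of the 6 samples are resolved.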
